A study of Mus musculus with 4 samples.

Results

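The Cd28, Ctla4 and Icos genes stand side by side on mouse chromosome 1 and encode the T cell receptors CD28, CTLA4 and ICOS. Open chromatin around them was described from ATAC-seq, an assay whose transposase cuts and tags accessible DNA. Peaks of 4 libraries were joined where they shared 1 bp or more, which gave 97394 regions. A region belonged to the cluster when the nearest interval of a protein-coding gene, within 100 kb of the region's midpoint, was Cd28, Ctla4 or Icos, and 75 regions met this rule. Of these, 23 lay nearest to Cd28, 22 to Ctla4 and 30 to Icos.

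The cells were CD4 T cells with the transgenic SMARTA T cell receptor, which recognises the GP61 peptide, and all 4 libraries came from cells that had been given while naive to cytoxan-treated mice bearing B16-GP61 melanoma and taken back from the lymph node draining the tumor after 11 days. WT cells had TOX, an HMG-box nuclear protein, and were sorted for CD4, for both congenic forms (Ly5.1+ and Ly5.2+) and for high levels of PD1, LAG3 and CD39. KO cells lacked TOX and were sorted for CD4, for Ly5.1 without Ly5.2 and for low levels of the same 3 proteins. Genotype, gate and congenic marker cannot be told apart, so WT and KO stand below for the whole combination. Each genotype had 2 libraries, and the names WT-1, WT-2, KO-1, KO-2 join genotype and replicate number. The sources used here do not give how the deletion was made, the age of the animals or whether replicates came from separate mice, so the spread between replicates may be technical. A peak from a sorted population does not show whether more cells carry the open site or each cell carries it more openly.

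CD28 is the main costimulatory receptor of naive T cells: with B7 ligands on antigen-presenting cells it adds to the T cell receptor signal through PI3K and NF-kappaB. CTLA4 binds the same B7 ligands more tightly and takes them away from CD28, and so restrains T cell responses. ICOS appears after activation, binds ICOS ligand and sustains helper T cells, follicular helper cells among them. All 3 genes are transcribed in the same direction, from Cd28 towards Icos.

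Every library had a peak over the annotated starts of Cd28 and Ctla4. On GRCm38, Cd28 runs from 60746388 to 60773359, Ctla4 from 60909025 to 60915832 and Icos from 60960773 to 61000322. The Ctla4 promoter is shown because it is the start site open in every library for which RefSeq (GRCm38.p6) gave a sequence here. The 250 bases before the start are chr1:60908775-60909024, plus strand. Capitals mark the matches found when both strands were searched for 10 short motifs.

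Ctla4 promoter: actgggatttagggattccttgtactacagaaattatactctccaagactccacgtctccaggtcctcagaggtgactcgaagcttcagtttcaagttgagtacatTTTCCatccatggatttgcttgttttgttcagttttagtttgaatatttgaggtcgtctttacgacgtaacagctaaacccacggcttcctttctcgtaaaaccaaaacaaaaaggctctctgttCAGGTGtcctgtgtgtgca

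The first match is the NFAT core GGAAA, which lies on the minus strand and so is printed as TTTCC, beginning at position -144 from the start. NFAT factors carry calcium signals of the T cell receptor to DNA. The second is the E-box CANNTG, here as CAGGTG, at position -19. Both motifs are common: 55.6% of 32851 RefSeq promoter windows of this length held the first and 66.2% the second. The letters TGANTCA for AP-1, TGTGGT for Runt factors, CCGGAAG for ETS factors, AGATAA for GATA factors, CTTTGA for TCF factors, TGACGT for part of the cyclic AMP element, TTCNNNGAA for STAT factors and TATAAA for the TATA box were not in this window. The 2 marked sites do not overlap.

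The 4 libraries differed in the length of their lists and in signs of other cells. Lists held from 43078 peaks (KO-1) to 61773 (KO-2), and read depth is unknown. T cell genes were open throughout: all 10 genes of a T cell list had regions, and 61, 62, 55 and 73 of its 98 regions were open (values ordered WT-1, WT-2, KO-1, KO-2). Cd3e had a peak at 5, 7, 5 and 7 of its 8 regions and Cd4 at 1, 2, 1 and 3 of 3. B cell genes, which neither gate was meant to admit, had a peak at 88 and 97 of 118 regions in the WT libraries and at 9 and 18 in the KO libraries. At Pax5 there were 14 and 19 in WT and 4 and 6 in KO. Myeloid and dendritic genes had a peak at 49 and 49 of 63 regions in WT against 15 and 23 in KO, and Csf1r and Itgax had 0 in both KO libraries. The part of these cells in the results at the cluster was not tested.

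The cluster was dense in open chromatin. Its regions spanned 365.6 kb, with 135.7 kb between Cd28 and Ctla4 and 44.9 kb between Ctla4 and Icos. A protein-coding gene with any region (16331 genes) had a median of 3 regions and of 1 region shared by all libraries. Ctla4 had 12 shared regions, a number reached by 0.649% of these genes, Icos had 10 (1.24%) and Cd28 had 7 (2.98%). Of the 75 cluster regions, 29 (38.7%) had a peak in all 4 libraries, against 27.6% of all regions. Another 26 (34.7%) had a peak in 1 library alone, against 48.4% of all regions. The remaining 20 had a peak in 2 or 3 libraries. Shared regions, which join peaks of 4 libraries and so are wider by the way they are made, had a median of 639 bp. Regions of 1 library had 190 bp. Over all regions the same medians were 851 bp and 195 bp. The strength of a region is given below as a percentile. This is the rank, from the lowest, of the deposited fold enrichment of its strongest peak among the library's own peaks, in percent of their number. Tied peaks were given their average rank. The percentile compares ranks and not amounts, because the lists differ in length.

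**Figure D1:**
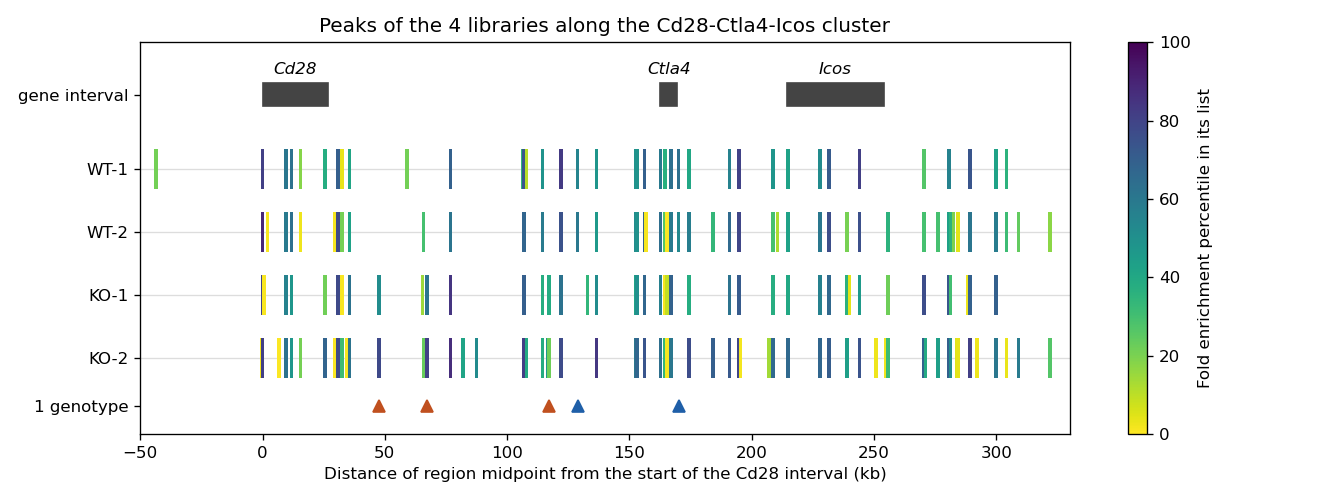
Position of each of the 75 regions (x axis, distance of its midpoint from the start of the Cd28 interval, kb) in the 4 libraries, with the gene intervals above; each mark is 1 region with a peak, drawn at a fixed width, and its colour is the percentile of its fold enrichment. Triangles mark the 3 regions with peaks in both KO libraries alone (orange) and the 2 with peaks in both WT libraries alone (blue), which lie between Cd28 and the far side of Ctla4.

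The number of cluster regions with a peak differed as much between replicates as between genotypes. WT-1 had 38, WT-2 had 48, KO-1 had 42 and KO-2 had 61, or 43.0 ± 7.07 in WT and 51.5 ± 13.4 in KO (SD, n = 2 each). KO-1 lay between the WT libraries and only KO-2 stood above them. The difference of -8.5 regions, WT minus KO, did not exceed the SD within KO (exact two-sided permutation p = 0.667, and 2 libraries against 2 cannot go below 0.33). It turned to 1.0 without KO-2 and was -20.0 without KO-1. Among the 20000 peaks of highest fold in each library it was -10.0 (exact two-sided permutation p = 0.333). Both KO libraries were then above both WT libraries. As a share of all regions with a peak in the same library, the cluster gave 0.717 and 0.818 per 1000 for WT-1 and WT-2, and 1.05 and 1.04 per 1000 for KO-1 and KO-2. On this scale, which divides by the number of regions in the list, both KO libraries lay above both WT libraries. Such a share does not fully take out the length of the list. Shared regions make up more of a shorter list, and 38.7% of cluster regions were shared, against 27.6% of all regions. The B cell and myeloid regions given above are part of the total of each list. Neither their part in this difference nor that of list length was tested.

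At Cd28 the counts, ordered WT-1, WT-2, KO-1, KO-2, were 11, 11, 12 and 18, so both KO libraries were above both WT libraries (exact two-sided permutation p = 0.333), by 1 region for KO-1. At Ctla4 it was 16, 17, 15 and 17, and the groups overlapped (exact two-sided permutation p = 1.0). At Icos it was 11, 20, 15 and 26, the widest spread of the 3 genes (exact two-sided permutation p = 0.667). Icos also held 8 of the 14 regions found in KO-2 alone. These 8 were 26.7% of the 30 regions of Icos, against 18.8% of all regions. In the whole cluster these 14 were 18.7% of the regions, close to the 18.8% of all regions found in KO-2 alone. They were mostly weak, with a median percentile of 3.7 and a highest of 52.3.

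**Figure D2:**
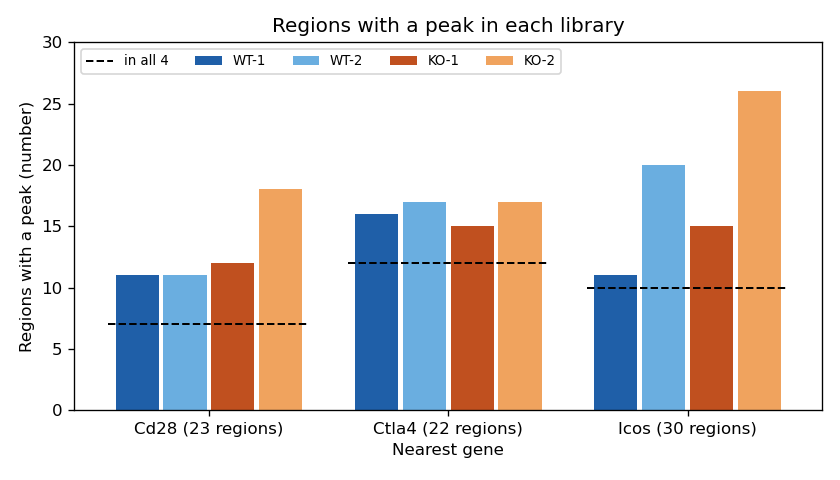
Number of regions with a peak (y axis) nearest to each gene (x axis) in each library; bars are single libraries and dashed lines mark the regions shared by all 4. The bars for Ctla4 stand between 15 and 17, and those for Icos between 11 and 26.

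Few cluster regions were confined to the peak lists of 1 genotype. WT-only regions, which both WT lists and no KO list contained, numbered 2 of 75 (2.67%), against 8.80% of all regions. KO-only regions, the reverse, numbered 3 (4.0%), against 1.78% of all regions. Counts this small moved with the settings. Without KO-1 there were 19 KO-only regions, since a single KO library then sufficed. Among peaks with a −log10 q of at least 10 there was 1 of each kind, the KO-only one then being 61016561 to 61017164 beyond Icos. The shares over all regions in these settings are not given here. Some peak numbers were skipped in the lists used here (1603 to 1900 a library), so an absent peak can be one that is not analysed here.

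Both WT-only regions lay nearest to Ctla4. The first, 60874866 to 60875679, is 33753 bp before the start of Ctla4, within the long noncoding RNA gene Gm38137. Its deposited fold enrichment over the caller's background was 4.43 in WT-1 and 4.66 in WT-2, at percentiles 54.8 and 60.0. The second, 60916236 to 60916815, begins just past the far end of Ctla4, with its midpoint at 693 bp. Its fold was 5.21 in WT-1 and 4.10 in WT-2, at percentiles 63.5 and 53.3, and its summits were 24 bp apart. Its −log10 q was 34.4 and 26.7, and it was the cluster's single WT-only region at a −log10 q of at least 10. With only the 20000 peaks of highest fold in each library, no region remained at either place.

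Of the 3 KO-only regions, 2 lay beyond the far end of Cd28. The region 60793784 to 60794088, 20577 bp past the gene and within the noncoding RNA gene 2310016D23Rik, had folds of 3.76 (KO-1) and 8.62 (KO-2), at percentiles 51.7 and 78.0. The region 60813417 to 60813785, 40242 bp past the gene, had folds of 4.42 (KO-1) and 9.55 (KO-2), at percentiles 61.3 and 81.0. KO-2 was the stronger library at both. The second was also KO-only among the 20000 peaks of highest fold and the first was not. At a −log10 q of at least 10 neither was KO-only, since the KO-1 peaks had 5.7 and 8.4. The KO-only region nearest to Ctla4, 60863320 to 60863687, was weak, with folds of 3.25 (KO-1) and 3.20 (KO-2) and percentiles of 38.6 and 22.2. It was absent at a −log10 q of at least 5.

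Among the 29 regions with a peak everywhere, strength could be set side by side. The mean percentiles were 56.5 for WT-1, 57.3 for WT-2, 56.1 for KO-1 and 66.9 for KO-2. KO-2 alone was high, and KO-1 lay below both WT libraries. The difference, WT minus KO, was -4.6 points (56.9 ± 0.53 against 61.5 ± 7.7, SD, n = 2 each, exact two-sided permutation p = 1.0). It became 0.84 without KO-2 and 1.77 among the 20000 peaks of highest fold in each library. In the second setting only 1 shared region inside the genes and 6 outside them remained. By percentiles of −log10 q the difference was -8.68, and by ranks among the shared regions alone, chosen after seeing the data, -7.07. In both rankings both KO libraries were above both WT libraries (exact two-sided permutation p = 0.333 each). Over all 26867 shared regions the library means of the fold percentile were 69.5, 71.6, 64.6 and 74.1, with a difference of 1.2 points. The cluster thus lay below the mean of all shared regions in every library, with a gap of -12.9 points for WT-1, -14.3 for WT-2, -8.52 for KO-1 and -7.1 for KO-2.

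The single regions split in both directions. At 8 of the 29 (27.6%) both KO percentiles were above both WT percentiles, against 16.5% of all shared regions. At 4 (13.8%) both WT percentiles were above both KO, against 25.9% of all shared regions. The other 17 overlapped. The share ordered towards KO was 14 of 38 in the T cell list, with 4 towards WT, so the balance at the cluster was not shown to be particular to it. The balance also turned on single libraries: without KO-2 there were 9 regions ordered towards KO and 15 towards WT, and without KO-1 20 and 5. With a library left out the rule asks for fewer libraries, and the shares over all regions are not given here. Among the 20000 peaks of highest fold there was 1 of each, where only 1 shared region inside the genes and 6 outside them remained.

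**Figure D3:**
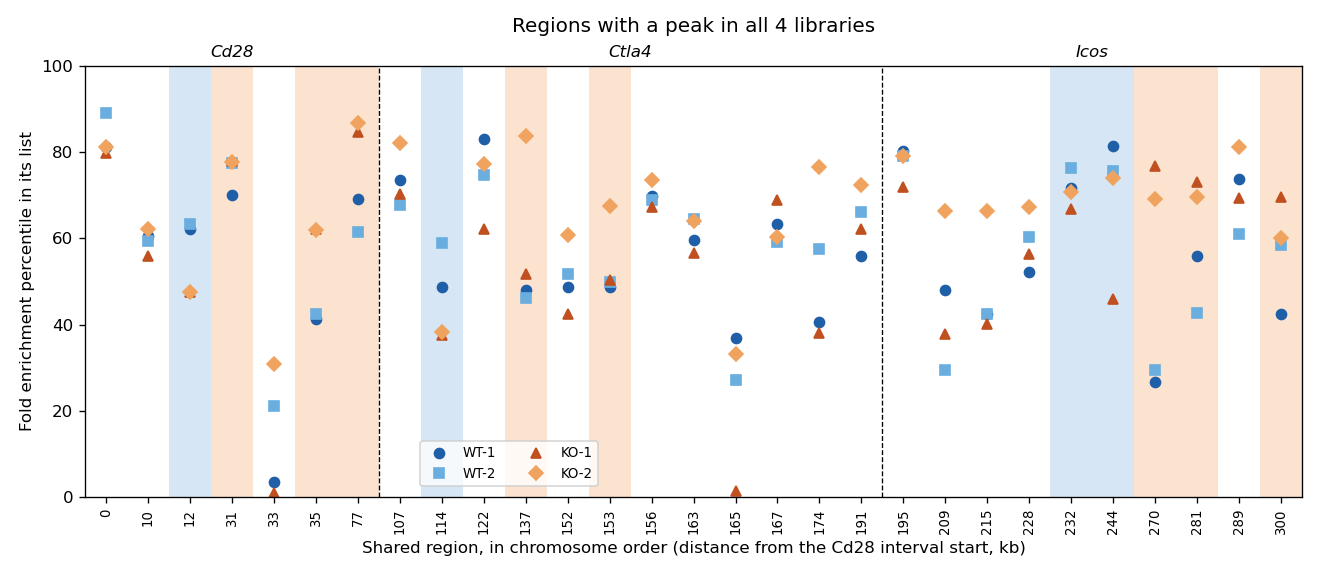
Percentile of the fold enrichment within each library's own list (y axis) at the 29 regions with a peak in all 4 libraries, in chromosome order (x axis, distance from the start of the Cd28 interval, kb). Each point is 1 library; blue shading marks the 4 regions with both WT above both KO points and orange shading the 8 with the reverse, and the widest separation is at the region 270 kb along, beyond Icos.

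The directions inside and outside the genes moved with the settings. Of the 9 shared regions inside Cd28, Ctla4 or Icos, 3 were ordered towards WT and 0 towards KO. The library means of these 9 were 58.9 and 58.7 in WT and 48.9 and 60.6 in KO, so KO-1 alone was low. Of the 20 outside the genes, 1 was ordered towards WT and 8 towards KO. By percentiles of −log10 q the inside regions gave 1 towards WT and 3 towards KO, and without KO-1 they gave 3 and 4. The outside regions gave 8 in each direction without KO-2. With a library left out the rule asks for fewer libraries. Over all shared regions, inside protein-coding genes 26.8% were ordered towards WT and 15.3% towards KO, and outside them 24.3% and 18.7%. These regions share 1 locus and the same 4 libraries, and no test was made over them.

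At Cd28, the start was the strongest shared site of the cluster by the mean percentile of the 4 libraries (82.8), and in WT-2 alone among single libraries. The region 60746021 to 60746599 covers it and had percentiles of 81.1 and 89.1 in WT-1 and WT-2, against 79.8 and 81.2 in KO-1 and KO-2. The groups overlapped, with WT-2 high and the other libraries within 2 points. The 4 summits lay within 13 bp of each other, between 12 and 25 bp before the annotated start. Inside the gene, the region 60757937 to 60758745 was ordered towards WT, with 62.1 and 63.4 in WT-1 and WT-2 and 47.5 and 47.5 in KO-1 and KO-2. Replicates agreed within 2 points there, and a separation as wide towards WT, 14.6 points, was found at 3.10% of all shared regions. Its neighbour 60755803 to 60756233 gave 60.6, 59.3, 55.9 and 62.3 in the order WT-1, WT-2, KO-1, KO-2, which overlap.

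Beyond Cd28 the order turned. The region 60781644 to 60782113, 8519 bp past the gene, had percentiles of 41.3 and 42.4 in WT and 62.1 and 61.9 in KO. The region 60822822 to 60823469, 49786 bp past it, had 69.2 and 61.5 in WT and 84.7 and 86.8 in KO, with a fold of 5.96 and 4.81 against 8.20 and 11.7. In both, the KO libraries were high by more than replicates differed: the closest WT and KO values were 19.5 and 15.5 points apart, separations towards KO reached by 1.90% and 2.93% of all shared regions. Another region, 60776812 to 60777740, was ordered towards KO by 0.21 points only. The weakest shared region of Cd28, 60778784 to 60779022, gave 3.62, 21.0, 0.93 and 30.9, where replicates differed more than genotypes.

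At Ctla4, 9 of the 12 shared regions overlapped between genotypes, against 3 of 7 at Cd28 and 5 of 10 at Icos. Over all shared regions 25.9% were ordered towards WT and 16.5% towards KO, and the rest overlapped. With percentiles of −log10 q 6 of the 12 overlapped, beside 26.1% towards WT and 15.8% towards KO over all shared regions. With ranks among the shared regions alone 5 overlapped, beside 24.0% and 22.0%. The promoter region whose upstream bases are printed above, 60908761 to 60909296, had percentiles of 59.6 and 64.5 in WT-1 and WT-2, against 56.7 and 63.9 in KO-1 and KO-2, with folds of 4.87, 5.09, 4.09 and 5.70. The difference, 62.0 ± 3.43 in WT against 60.3 ± 5.15 in KO (SD, n = 2 each), was smaller than either spread. The summit stood 52, 54 and 54 bp past the annotated start in WT-1, WT-2 and KO-2 and 11 bp before it in KO-1. Inside the gene, 60913087 to 60913779 gave 63.4, 59.1, 68.8 and 60.4, and 60910845 to 60911124 gave 37.0, 27.1, 1.45 and 33.2. In the second, KO-1 alone was low.

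By the mean of the 4 libraries, the strongest shared regions of Ctla4 lay away from it. The region 60868129 to 60868795, 40563 bp before the start, had percentiles of 82.9, 74.8, 62.2 and 77.1, with KO-1 low. The region 60852742 to 60853978, 55665 bp before it and the widest of the cluster's shared regions at 1237 bp, had 73.4, 67.6, 70.3 and 82.0, which overlap. The region 60860548 to 60861027 was ordered towards WT, with 48.6 and 59.0 in WT and 37.6 and 38.3 in KO, 10.4 points apart. The region 60882728 to 60883138 was ordered towards KO, with 48.0 and 46.2 in WT and 51.7 and 83.7 in KO, where KO-1 was 3.67 points from WT-1 and KO-2 far above. The region 60899172 to 60899737, with 48.7, 49.9, 50.3 and 67.4, was ordered towards KO by 0.43 points.

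Icos held the widest separation of the cluster. The region 61016561 to 61017164, 16540 bp past the far end of the gene, had percentiles of 26.8 and 29.4 in WT-1 and WT-2, against 76.8 and 69.0 in KO-1 and KO-2. Both WT libraries were low and both KO libraries high. The means were 28.1 ± 1.87 in WT and 72.9 ± 5.51 in KO (SD, n = 2 each), and the closest WT and KO values were 39.6 points apart. A separation this wide towards KO was found at 53 of the 26867 shared regions, or 0.197%. The folds were 3.06 and 2.97 in WT against 6.45 and 6.52 in KO, and the −log10 q 3.5 and 3.5 against 19.0 and 13.8. At a −log10 q of at least 5 or 10, and among the 20000 peaks of highest fold, the WT peaks were no longer counted and the region became KO-only.

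Of the 4 shared regions beyond Icos, 3 were ordered towards KO. The region 61026720 to 61027358, 26717 bp past Icos, had 55.8 and 42.7 in WT and 73.1 and 69.7 in KO, 13.8 points apart, a separation towards KO reached by 3.54% of all shared regions. The region 61045859 to 61046712 had 42.5 and 58.3 in WT and 69.7 and 60.2 in KO, 1.83 points apart. The last shared region there, 61035142 to 61035989, gave 73.7, 61.1, 69.3 and 81.1, which overlap. Over these 4 regions beyond Icos the mean percentiles of WT-1 and WT-2 were 49.7 and 47.9, and those of KO-1 and KO-2 were 72.2 and 70.0, a difference of -22.3 points (48.8 ± 1.29 against 71.1 ± 1.58, SD, n = 2 each). This group was singled out after its values were seen. It includes the region 61016561 to 61017164, whose own difference was -44.9 points. The SDs are those of means over the 4 regions. WT-1 lay above WT-2 at 61026720 and 61035142 and below it at 61045859, so these differences cancelled in part. Only 1 of the 4 regions was still shared at a −log10 q of at least 10, and 0 among the 20000 peaks of highest fold.

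Inside Icos 2 shared regions were ordered towards WT, both by small separations, and 0 towards KO. The region 60990057 to 60990943 had 81.4 and 75.7 in WT and 46.0 and 74.0 in KO, so that KO-1 was low and KO-2 was 1.62 points below WT-2. A separation as wide towards WT was found at 18.2% of all shared regions. The region 60977569 to 60978392, 17207 bp inside the gene interval, had 71.7, 76.3, 66.8 and 70.8, with the genotypes 0.88 points apart and the 4 strongest summits within 16 bp. Its separation was reached towards WT by 21.3% of all shared regions. By percentiles of −log10 q neither region was ordered, and by ranks among the shared regions alone only 60990057 to 60990943 was, towards WT. The region nearest to the start of the interval, 60961026 to 60961421, did not cover that start and had 42.5, 42.4, 40.2 and 66.3, with KO-2 alone high. The gene table joins predicted and curated transcripts of Icos in 1 interval, so its start need not be the start in use. It gives no start for each transcript, so the region 60977569 to 60978392, counted here as inside the gene, may be a promoter. By the mean of the 4 libraries, 77.5, the strongest shared region of Icos was 60940698 to 60941581, though in WT-1, KO-1 and KO-2 another region was stronger. It lay 19634 bp before the interval, with 80.2, 79.1, 71.8 and 79.1 and summits within 6 bp.

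Over all shared regions of a gene, the difference in mean percentile, WT minus KO, was -3.94 points at Cd28 (57.3 ± 2.65 against 61.2 ± 3.97, exact two-sided permutation p = 0.667), -1.23 at Ctla4 (57.0 ± 0.91 against 58.3 ± 10.6, exact two-sided permutation p = 1.0) and -9.11 at Icos (56.5 ± 1.4 against 65.6 ± 6.78, exact two-sided permutation p = 0.333), each with SD over n = 2. At Icos both KO libraries, 60.8 and 70.4, were above both WT libraries, 57.5 and 55.5, but the difference was -4.31 without KO-2 and turned to 4.68 among the 20000 peaks of highest fold, where none of the 4 regions beyond Icos was still shared. At Ctla4 it turned to 6.29 without KO-2 and to 0.85 with those strongest peaks, and at Cd28 to 0.22 with them. With those peaks only 2 regions of Cd28, 3 of Ctla4 and 2 of Icos were still shared. The summits of shared regions lay close together: at 21 of the 29 shared regions the strongest summits of the 4 libraries lay within 100 bp, with a median range of 45 bp. The widest range, 270 bp, was at the region 61016561 to 61017164 beyond Icos.

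**Figure D4:**
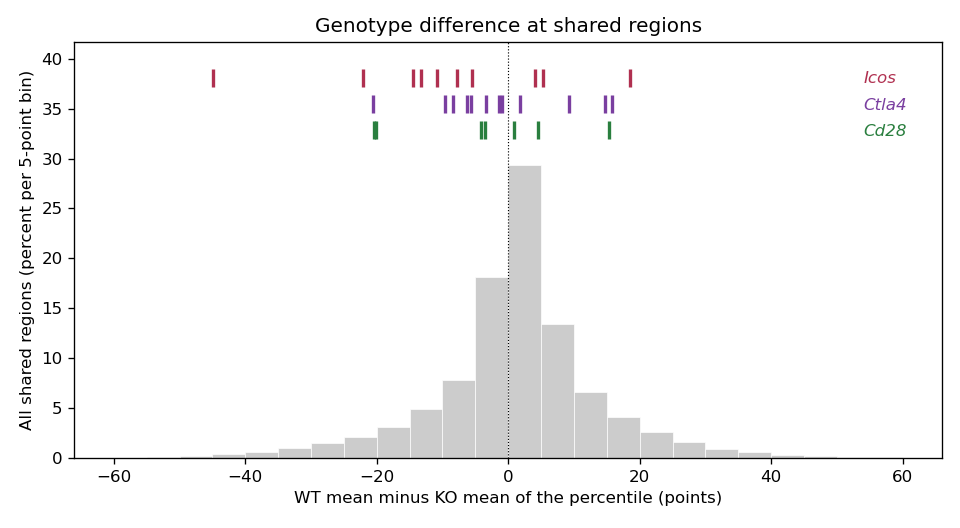
Difference of the mean percentile, WT minus KO in points (x axis), at all 26867 shared regions (grey bars, percent per bin) and at the shared regions of Cd28, Ctla4 and Icos (coloured ticks above the bars, 1 tick a region). The ticks run from -44.9 at Icos to 18.5, also at Icos.

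Other genes of the same pathway were counted with the same rules. Btla and Pdcd1, the other inhibitory receptors of the CD28 family, were counted first: of 16 regions at Btla 3 were WT-only and 0 KO-only, and of 14 at Pdcd1 0 and 1. The ligands, made mainly by antigen-presenting cells, had 53 regions, 9 of them WT-only and 1 KO-only (17.0% and 1.89%, against 8.80% and 1.78% of all regions). Among them Pdcd1lg2 (PD-L2) had 3 and 0 of 9 regions and Cd86 had 2 and 0 of 16. Regions of B cell and myeloid genes were likewise more often open in the WT libraries, as given above.

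The 23 signalling genes downstream of CD28 and ICOS together had 378 regions, of which 38 were WT-only and 16 KO-only (10.1% and 4.23%), against 8.80% and 1.78% of all regions. WT-only regions were the more numerous at 12 of these genes and KO-only regions at 3, with equal numbers at 8. Nfkb1, an NF-kappaB subunit, had 4 and 0 of 36. Grap2, an adaptor of the T cell receptor pathway, had 4 and 1 of 20. Prkcq, the kinase PKC-theta that CD28 brings to the synapse, went the other way with 2 and 5 of 51. Genes of CTLA4 trafficking had 9 and 0 of 56 (16.1% and 0%), with 5 of the 9 at Lrba, whose protein protects CTLA4 from lysosomal breakdown. Icos mRNA decay genes had 4 and 1 of 20 (20% and 5.0%), of which 3 and 0 stood at Rc3h1 (Roquin-1). Genes that costimulation raises gave 5 and 3 of 60 (8.33% and 5.0%), the first share close to that of all regions, with 3 and 0 at the survival gene Bcl2l1 and 2 and 0 at the glucose transporter gene Slc2a1, against 0 and 1 at each of Il21 and Maf. Of the genes that flank the cluster, Raph1 had 0 of both kinds among 15 regions and Pard3b 4 and 0 of 17.

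The pattern over libraries was also set beside that of 40 genes of these lists with at least 10 regions, by the distance, in percentage points over the 4 libraries, between the shares of a gene's regions that had a peak. Nearest to Cd28, with shares of 47.8, 47.8, 52.2 and 78.3% in the same order of libraries, were Malt1 at 10.6 points and Maf at 15.1. Ctla4 had shares of 72.7, 77.3, 68.2 and 77.3%, and Ptpn11 was among the nearest to it at 13.9 points. Nearest to Icos, with 36.7, 66.7, 50.0 and 86.7%, were Lcp2 at 21.3 and Malt1 at 26.8. These distances rest on 4 libraries that differ in list length, which moves all genes together.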

How the data were processed

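ATAC-seq peak lists of 2 WT and 2 KO libraries were used, 1 list a library. Per the labels' protocols, transposition of thawed, lysed cells took 45 min at 42 °C, and reads were paired, 50 bp each. Tools named by the submitters' processing notes are BWA, deepTools, MACS2, Picard and SAMtools, on GRCm38 (mm10). The sources used here do not give versions, settings, read shifting or filters. The deposited lists have 10 columns in narrow-peak layout. The deposited fold enrichment is a ratio over the caller's background. The deposited −log10 p and −log10 q rank a peak within its list, and every −log10 q was at least 2.0. The deposited score was not used. These are the authors' own values per peak and served to rank and filter peaks within a list. Read numbers are not given, so no counting interval was set.

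Regions were merged, ranked and assigned with Python 3.11 and pandas 2.3.3, using RefSeq gene intervals on GRCm38.p6. A midpoint inside several genes went to the one that starts first. Tests were exact two-sided permutations over libraries. The merging and ordering rules were tested on simulated data with known regions. Groups come from the library names in the labels. Alternatives were stricter peaks, lists of equal length, another overlap rule, a nearer gene limit, other ranks and each library left out.

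The members, gene lists and rules were chosen with earlier results of these data known. Named by rule were the 3 members, their shared, WT-only and KO-only regions, up to 4 genes a list by the difference of WT-only and KO-only counts, 6 defining markers and the 2 genes nearest in pattern to each member. Some genes that this rule names are not reported here. The split into regions inside and outside genes, and the group beyond Icos, were chosen after the values were seen. Lists for CD8 T cells, natural killer cells and melanocytes had 0, 1 and 0 WT-only and 0 KO-only regions of 6, 11 and 18.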

Additional observations from a re-analysis of the deposited data

How the results depend on the processing

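No difference at the cluster passed a test, and with 2 libraries a group none could. The difference in the number of regions with a peak, -8.5, lay between -20.0 and 1.0 with 1 library left out. It changed sign without KO-2, as did that of Icos, between -10.5 and 0.5. With the 20000 peaks of highest fold the cluster difference was -10.0 (exact two-sided permutation p = 0.333), that of Cd28 -3.5 and that of Icos -3.0. That of Ctla4, 0.5, was -3.5 with the 20000 peaks of highest fold, 0.0 with an overlap of 50% of the shorter peak, and lay between -2.5 and 1.5 with 1 library left out (0.0 without WT-2). The difference in mean percentile, -4.6, was -8.68 by percentiles of −log10 q. With the 20000 peaks it was 1.77 (0.22 at Cd28, 0.85 at Ctla4, 4.68 at Icos), where only 2, 3 and 2 regions of these genes were still shared. With 1 library left out it lay between -8.76 and 0.84 (from -8.74 to 6.29 at Ctla4). The cause of these turns was not tested.

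WT-only regions, 2, numbered 0 with the 20000 peaks, 1 with a −log10 q of at least 10, 1 within 20 kb of a gene and 2 to 6 with 1 library left out. KO-only regions, 3, numbered 4 with the 20000 peaks, 1 with a −log10 q of at least 10 and 0 within 20 kb. They numbered 4 to 19 with 1 library left out, where the rule asks for fewer libraries. Regions ordered towards KO, 8, numbered 1 with the 20000 peaks, 3 with a −log10 q of at least 10, 4 within 20 kb, 13 by percentiles of −log10 q and 9 to 20 with 1 library left out. Those ordered towards WT, 4, numbered 1, 2, 3, 2 and 5 to 15 in the same settings. Here too the rule asks for fewer libraries when 1 is left out. Stricter peaks also left fewer shared regions to order, with the 20000 peaks only 1 inside the genes and 6 outside them. For the settings of this paragraph, shares over all regions are given only for the rankings that follow. By percentiles of −log10 q, 15.8% of all shared regions were ordered towards KO and 26.1% towards WT. Ranking among the shared regions alone, an alternative chosen after seeing the data, gave 12 towards KO and 5 towards WT, beside 22.0% and 24.0% of all shared regions, and a difference of -7.07.

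No pairing by replicate number was detected: the deviations of same-numbered libraries had a correlation of 0.017 over the 26867 shared regions. With 2 libraries a group this cannot tell whether same-numbered libraries were handled together. With the replicate number as a block the difference in regions stayed -8.5 (exact sign-flip permutation p = 0.5, the smallest that 2 pairs can give), from differences of -4 and -13, and the difference in percentile stayed -4.6 (exact sign-flip permutation p = 1.0). Depth is unknown, so an absent peak cannot be told from one under the caller's limit.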
